A study of Bos taurus with 138 samples.

Results

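Metaphase II (MII) oocytes of cattle were compared between the heavy and the light end of a sucrose gradient. The comparison rests on 12 of the 138 libraries of the series: fractions F3, F4 and F5 and fractions F8, F9 and F10 of gradients A and B. The study classes F3 to F5 as monosomes (light) and F8 to F10 as polysomes (heavy). The 3 light and the 3 heavy libraries of each gradient were summed, which gave 4 pools: 1 light and 1 heavy pool in gradient A and in gradient B. F6 and F7 belong to neither pool and were used to follow named genes over the 16 libraries from F3 to F10.

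The series holds 10 fractions of 2 gradients at each of 6 stages, from germinal vesicle (GV) oocytes to blastocysts, and 18 libraries of whole oocytes or embryos, which were not used here. MII oocytes were Bos taurus oocytes, pooled within a gradient, that came from follicles of slaughterhouse ovaries and were matured in vitro and stripped of cumulus cells and zona. No genotype is given. GV oocytes came from the same kind of follicle without maturation, and 2-cell embryos were made from matured oocytes by in vitro fertilization with frozen semen of a Holstein bull. All of them received cycloheximide before collection, and the series text calls gradients A and B biological duplicates. The sources give different numbers of oocytes per gradient, and do not give the number of animals.

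An mRNA that carries many ribosomes sediments far into a sucrose gradient, whereas an mRNA with a single ribosome or none stays near the top. Fully grown oocytes do not transcribe, so during maturation the proteins they make depend on which stored mRNAs enter or leave polysomes. At metaphase II the oocyte is arrested with an assembled spindle: cyclin B with CDK1 keeps it in M phase, MOS and EMI2 (gene FBXO43) restrain the anaphase promoting complex, and fertilization releases that brake. The comparison asks which mRNAs of the arrested oocyte were over- or under-represented in heavy against light fractions.

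The 20 MII fraction libraries held between 8720380 and 12955351 expected counts, and the 4 pools between 31375135 and 36212834. Values are given as CPM (counts scaled to a common library total), with TMM factors, in the order light A, light B, heavy A, heavy B unless another order is stated. A CPM is a share of a library, so the RNA content of a fraction is not measured. Comparisons between pools concern the same gene, since values are not per length. All adjusted p-values come from the edgeR quasi-likelihood test with Benjamini-Hochberg adjustment over all genes tested and are two-sided. With 2 gradients the p-values measure the spread between those 2 preparations.

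F10 of gradient B stood apart. It held 6188 genes with at least 3 counts, whereas the other 19 libraries held 9689 to 13245, although its total of 8840839 counts was within the range of the others. Pearson's r of log2(CPM + 1) across genes between the 2 libraries of F10 was 0.652, against 0.826 to 0.962 for the other fractions. F6 of gradient B had the next lowest number of genes (9689) and enters no pool. The edgeR tests were therefore recomputed without F10 of gradient B, which leaves F8 and F9 in the heavy pool of that gradient. Counts of genes by sign in both gradients, by separation of the pools or by peak were not recomputed. Those counts and the profiles include F10 of gradient B.

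**Figure D1:**
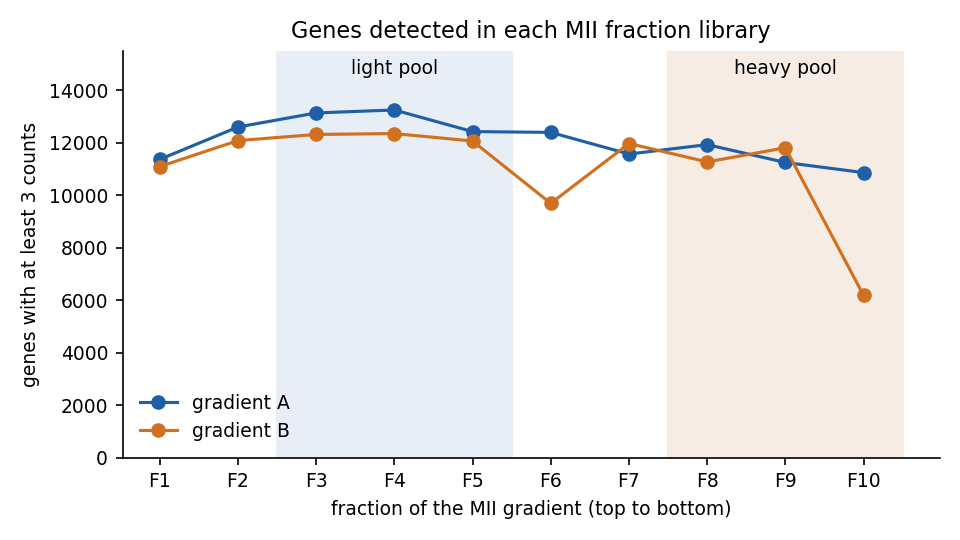
Number of genes with at least 3 counts (vertical axis) in each of the 10 fraction libraries (horizontal axis) of MII gradients A (blue) and B (orange), with the light and heavy pools shaded. F10 of gradient B held 6188 genes and F10 of gradient A 10860.

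Of 16706 gene symbols in the table, 12918 passed the filter on low counts and were tested. At an adjusted p-value below 0.05, 129 genes (0.999% of those tested) were higher and 120 (0.929%) were lower in the heavy pools. The smallest fold among them was 3.23 for the higher and 3.58 for the lower genes, and in each of the 249 genes both heavy pools lay on the same side of both light pools. Such separation was common: it held for 3465 genes with heavy above light and 3737 with light above heavy. The median log2 fold change of all genes tested was 0.05, that of the higher genes 2.61 and that of the lower genes -2.40. All 249 adjusted p-values lay between 0.0416 and 0.0497, close to the threshold, and 1544 and 1576 genes had an unadjusted p-value below 0.05.

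The number of calls depended on the model. With library size only, F8 left out or F3 left out, 0 genes passed the edgeR test (lowest adjusted p 0.0616, 0.0899 and 0.0584). The same held for F9 and F10 against F3 and F4 (lowest adjusted p 0.0820). Without F10 of gradient B, 444 genes were higher (3.43%) and 627 lower (4.85%), and 245 of the 249 genes were called again in the same direction. With the gradient letter as a replicate block, which compares the pools of 1 lysate with each other, 894 genes were higher (6.92%) and 946 lower (7.32%), and all 249 were among them. Below, a gene is said to be higher or lower only where it passed without the block and with all libraries. Genes that passed only under one of the other models are given with those p-values. Counts of called genes in the lists below are to be read beside the shares of all genes for the same model.

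The log2 ratio of heavy to light in gradient A and that in gradient B had a Pearson's r of 0.547 across the 12918 genes, and 0.581 without F10 of gradient B. Genes are not independent replicates, and each ratio shares its lysate. The light pools of the 2 gradients resembled each other more (r = 0.957) than the heavy pools did (r = 0.875). In the plot of one ratio against the other, the called genes occupy the 2 corners in which both gradients gave a ratio of the same sign, though not always of like size. The same pools were used to call these genes, so their place in the plot is a description and no separate support. In both gradients the ratio was positive for 4426 and negative for 4509 of the 12918 genes.

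**Figure D2:**
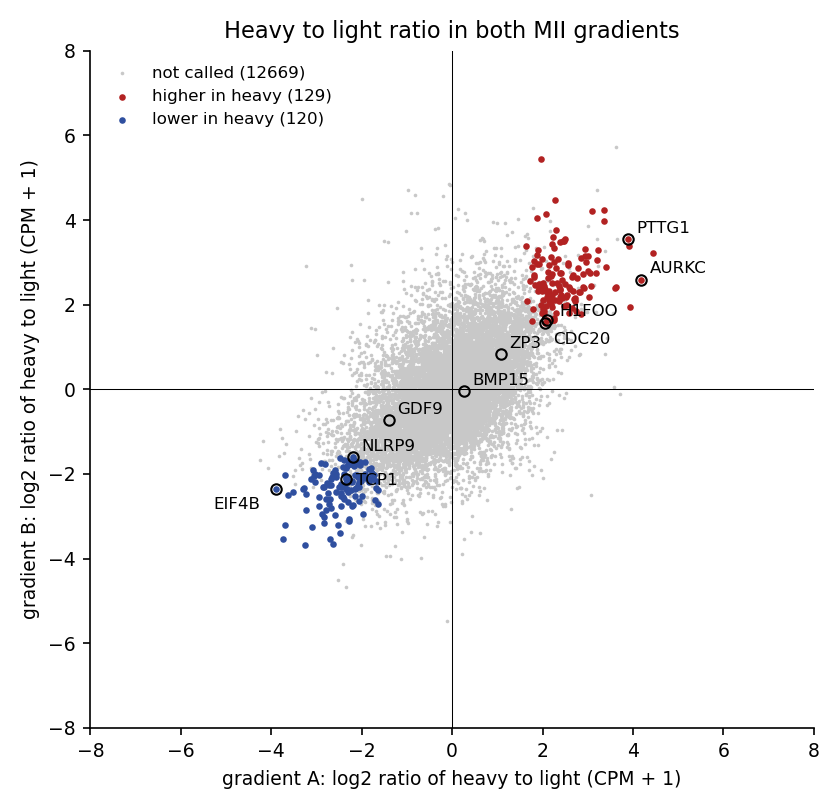
Log2 ratio of heavy to light CPM (pseudocount 1) in gradient A (horizontal axis) and gradient B (vertical axis) for 12918 genes, each a point. The 129 genes higher in heavy pools (red) and the 120 lower (blue) lie in the corners where both gradients changed the same way, and circles mark 10 genes of the text. The same pools were used to call the red and blue genes, so their place is a description.

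The largest folds below are among called genes with a mean of at least 20 CPM, at least 3 counts in each pool and no overlap. Symbols that start with LOC or ENSBTAG were left out. Called genes outside these limits reached log2 fold changes of 10.39 and -11.08. Within them, the genes with the largest fold among those higher in heavy pools included regulators of chromosomes and cell division. CETN3 (centrin 3, a calcium-binding centriole protein) had 13.4, 8.32, 147 and 174 CPM, a log2 fold change of 3.89 ± 0.43 (SE, n = 2 gradients; adjusted p = 0.0416). SNRPD3 (a core protein of spliceosomal snRNPs) had 36.1, 53.0, 812 and 502 CPM (3.88 ± 0.44). In both genes each heavy pool lay far above each light pool. ATRX (a chromatin remodeller) had 5.10, 1.45, 51.2 and 44.7 CPM (3.87 ± 0.67; adjusted p = 0.0452). RIF1 (a replication timing and DNA repair factor) had 4.29, 2.89, 39.4 and 37.5 CPM (3.42 ± 0.47; adjusted p = 0.0416). CSTB (cystatin B, an inhibitor of cathepsins) had 25, 35.1, 389 and 373 CPM (3.67 ± 0.39). In each of these 3 genes both heavy pools lay above both light pools, although the light pools of ATRX differed from each other and the heavy pool of gradient B had 208 CPM of CSTB without F10.

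DDX50, MGST3 and HYPK were also among the largest folds within these limits, with log2 fold changes of 3.39, 3.32 and 3.32. In DDX50 (an RNA helicase) the heavy pool of gradient B had 81.4 CPM, and 29.3 CPM without F10, so its log2 fold change was 2.47 without that library (adjusted p = 0.0262). In MGST3 (a microsomal glutathione transferase) the same pool had 75.1 CPM, and 40.1 CPM without F10, with a log2 fold change of 2.73 without it. HYPK (a partner of the N-terminal acetylation complex) had 205 and 198 CPM in the heavy pools and 21.2 and 19.4 CPM in the light pools.

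Among genes lower in heavy pools, GNAI2 (a G protein alpha subunit that inhibits adenylyl cyclase) fell by 3.69 on the log2 scale, with 186, 61.3, 13.3 and 5.73 CPM (SE 0.68; adjusted p = 0.0462). Its light pools differed from each other, yet both lay above both heavy pools. USP4 (a ubiquitin protease) had 538, 306, 56.5 and 41.1 CPM (-3.11 ± 0.44; adjusted p = 0.0416). POLR1E (a subunit of RNA polymerase I) had 258, 527, 35.4 and 64.5 CPM (-2.97 ± 0.51; adjusted p = 0.0452). Within the same limits on level, counts and symbols, the other genes with the largest decreases were GCNT3, NR2C2, C4H7orf25, EIF4B, ZSCAN31, CALCOCO2 and VPS33A. Their log2 fold changes ran from -3.14 to -2.93. Among them NR2C2 (an orphan nuclear receptor) had 210, 193, 31.5 and 15.8 CPM, and CALCOCO2 (an autophagy receptor) had 122, 132, 21.3 and 11.7 CPM.

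In heavy pools 3 genes were higher that belong to the machinery that separates chromosomes when the metaphase II arrest ends. The anaphase promoting complex (APC/C) is a ubiquitin ligase that, with its activator CDC20 and the E2 enzyme UBE2C, marks securin and cyclin B for destruction. PTTG1, which encodes securin, the inhibitor of separase, had 254, 251, 3803 and 2964 CPM, a 13.4-fold difference (log2 3.74 ± 0.36; adjusted p = 0.0416). UBE2C had 184, 135, 828 and 594 CPM (2.15 ± 0.38; adjusted p = 0.0452). CDC20 had 343, 370, 1433 and 1102 CPM (1.83 ± 0.34; adjusted p = 0.0470). In each of the 3 genes both heavy pools exceeded both light pools by more than the gradients differed.

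These 3 genes were the called members of a list of 20 tested APC/C genes, of which none was lower. The median log2 fold change was 1.57 over the 6 activators, E2 enzymes and substrates, and 0.05 over the 14 subunits, the same as for all genes. Among subunits none was called. In the fit without F10 of gradient B, ANAPC5 was lower (adjusted p = 0.0478) and ANAPC2 higher (adjusted p = 0.0426), and both passed with the block. These 2 were picked after their values were seen.

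In the list of 61 spindle and kinetochore genes, 6 were higher and 0 lower, and the median was 0.69. CENPF (a kinetochore protein) had 38.2, 44.4, 316 and 316 CPM (2.94 ± 0.36; adjusted p = 0.0416). SMC3 (a ring subunit of cohesin, which holds sister chromatids together) had 14.7, 11.4, 81.9 and 137 CPM (3.07 ± 0.44; adjusted p = 0.0416). The other 4 were PRC1, ZW10, MAD2L1 and NCAPG, named after their values were seen. PRC1 (a microtubule bundler of the central spindle) had 171, 129, 685 and 1090 CPM (2.57 ± 0.40). MAD2L1 (a spindle checkpoint protein) had 8.21, 7.12, 43.7 and 39.0 CPM (2.43 ± 0.42; adjusted p = 0.0452), ZW10 (a checkpoint protein of the kinetochore) a log2 fold change of 2.55, and NCAPG (a condensin subunit) one of 2.02. Of the 22 spindle genes 15 had a positive ratio in both gradients and 2 a negative one, and of the 26 kinetochore and passenger genes 15 and 7, beside 4426 and 4509 of all 12918 genes. Of the 61 genes 11 were higher and 3 lower without F10 of gradient B (all genes: 3.43% and 4.85%), and 14 and 6 with the block (all genes: 6.92% and 7.32%). TACC3 (a spindle microtubule protein), chosen after its values were seen, was among those added, with 990, 746, 2698 and 2194 CPM (1.49 ± 0.35; adjusted p = 0.0672, 0.0378 without F10 of gradient B and 0.0062 with the block).

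Kinases and cyclins of the meiotic arrest did not move as a group. Of 32 genes tested 2 were higher and 0 lower, and the median was -0.13, with -0.40 in gradient A and 0.21 in gradient B. Leaving out F10 of gradient B gave 4 higher and 5 lower, and the block 7 and 5. AURKC (the germline Aurora kinase of the chromosomal passenger complex) had 85.4, 100, 1569 and 610 CPM (3.55 ± 0.52; adjusted p = 0.0416), and CKS2 (the small CDK-binding subunit needed for meiosis) had 62.5, 43.0, 290 and 382 CPM (2.67 ± 0.40; adjusted p = 0.0416). The heavy pools of AURKC differed from each other, and both lay above both light pools.

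The kinase of the arrest itself showed the opposite sign. CDK1 had 66.4, 89.9, 15.2 and 23.3 CPM (-2.02 ± 0.42; adjusted p = 0.0549, 0.0404 without F10 of gradient B and 0.00198 with the block). CCNB2 (cyclin B2) had 1530, 2152, 496 and 1039 CPM (adjusted p = 0.142, 0.0475 without that library and 0.0138 with the block). These 2 genes were picked after their values were seen. CCNB1 (cyclin B1) had 435, 365, 491 and 573 CPM, a log2 fold change of 0.41 ± 0.33 (adjusted p = 0.503). MOS (the kinase that starts the MAP kinase cascade of the arrest) had 2835, 2977, 4232 and 4970 CPM (0.66 ± 0.32; adjusted p = 0.251). For both, the 2 heavy pools were above the 2 light pools, by amounts that did not pass.

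FBXO43 (EMI2, the inhibitor of the APC/C) had 9.39, 7.99, 34.8 and 17.3 CPM (1.58 ± 0.50; adjusted p = 0.121, 0.0473 without F10 of gradient B and 0.0473 with the block). WEE2 (the oocyte kinase that inhibits CDK1) had 215, 145, 129 and 129 CPM (-0.48 ± 0.36; adjusted p = 0.468). TPX2 (a spindle assembly factor) had 97.7, 92.9, 129 and 122 CPM (0.40 ± 0.34; adjusted p = 0.524). In TPX2 the value in F10 of gradient B was 0.126 CPM, against 117 CPM in F10 of gradient A.

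Maternal effect genes, whose products are laid down in the oocyte and needed by the early embryo, had a median of 0.55 over 22 tested, with 2 higher and 1 lower (4 and 2 without F10 of gradient B, 5 and 3 with the block). H1FOO, the oocyte linker histone, had 1077, 1063, 4639 and 3303 CPM, a 3.71-fold difference (1.89 ± 0.35; adjusted p = 0.0452). DNMT1 (the maintenance DNA methyltransferase) had 33.3, 36.4, 118 and 138 CPM (1.88 ± 0.36; adjusted p = 0.0479). NLRP9 (an oocyte NLR family gene) was the lower one, with 2801, 2131, 611 and 698 CPM (-1.91 ± 0.34; adjusted p = 0.0452). NLRP5 (MATER, of the subcortical maternal complex) had 1636, 1827, 3318 and 2362 CPM (0.71 ± 0.34; adjusted p = 0.250), so 2 abundant NLRP mRNAs of the same cell differed in sign. Of the 8 genes of the subcortical complex list, 7 had a positive ratio in both gradients and NLRP9 a negative one, beside 4426 and 4509 of all 12918 genes. Another 3 genes, named after their values were seen, passed only in other models. DPPA3 had 150, 200, 457 and 484 CPM (adjusted p = 0.0730, 0.0421 without F10 of gradient B), TRIM28 had 39.5, 28.5, 109 and 103 CPM (0.0660 and 0.0473), and OOEP had 1089, 1232, 3046 and 3618 CPM (0.0582, 0.0663, and 0.00633 with the block).

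Genes that the oocyte secretes were split. OOSP2 (an oocyte-secreted protein) was the single one of 13 called, with 39.5, 45.2, 313 and 371 CPM (3.01 ± 0.37; adjusted p = 0.0416), and the median of the list was 0.11. The list had 2 higher and 1 lower without F10 of gradient B, and 3 and 3 with the block. ZP3 (a zona pellucida glycoprotein) was the most abundant oocyte marker, with 10667, 26307, 22716 and 46826 CPM (0.91 ± 0.53; adjusted p = 0.339). Its 2 gradients differed more than its pools did, and light B exceeded heavy A. The other zona mRNAs had negative fold changes: ZP2 had 3172, 3386, 1094 and 1573 CPM (-1.30 ± 0.35; adjusted p = 0.0837, 0.0478 without F10 of gradient B and 0.0165 with the block), and ZP4 had 8238, 13276, 10546 and 8661 CPM (-0.16 ± 0.36; adjusted p = 0.832). The sign of ZP4 rested on gradient B, since its log2 ratio was 0.36 in gradient A and its log2 fold change was 0.37 without gradient B. GDF9 (a growth factor for cumulus cells) had 1860, 2071, 705 and 1252 CPM (-1.01 ± 0.38; adjusted p = 0.167, and 0.0477 with the block). BMP15, its partner, had 1685, 1932, 2027 and 1871 CPM (0.11 ± 0.32; adjusted p = 0.879), with pools that overlapped.

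Factors that govern poly(A) tails and the decay of stored mRNA were near the median of all genes. Of 45 genes of cytoplasmic polyadenylation and RNA binding 0 were called in the edgeR test (median -0.16), with 1 higher and 7 lower at an unadjusted p-value below 0.05. The lower genes numbered 3 without F10 of gradient B, with the block 4 and with DESeq2 3, and 0 were higher in any of these. YBX1 (an RNA-packaging protein) had 203, 199, 16.7 and 47.7 CPM (-2.64 ± 0.54; adjusted p = 0.0543 and 0.0230 without that library). It was chosen after its values were seen. DAZL had 8.46, 9.59, 15.2 and 19.5 CPM, PABPC1L had 32.1, 30.2, 42.8 and 36.8 CPM, and ZAR1 had 643, 600, 777 and 709 CPM. The adjusted p-values of these 3 germline RNA-binding genes were 0.254, 0.626 and 0.681.

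In the list of 39 deadenylation and decay genes 1 was called, and the median was -0.06 (1 higher and 1 lower without F10 of gradient B, 3 and 1 with the block). CNOT7, a catalytic deadenylase of the CCR4-NOT complex, had 28.4, 19.1, 135 and 114 CPM, a 5.23-fold difference (2.39 ± 0.40; adjusted p = 0.0434). CNOT6L, another deadenylase of that complex, had 14.0, 13.3, 14.7 and 19.4 CPM (0.32 ± 0.44; adjusted p = 0.711). BTG4, the adaptor that brings CCR4-NOT to maternal mRNAs, had 1318, 1418, 1640 and 2608 CPM (0.64 ± 0.36; adjusted p = 0.328).

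**Figure D3:**
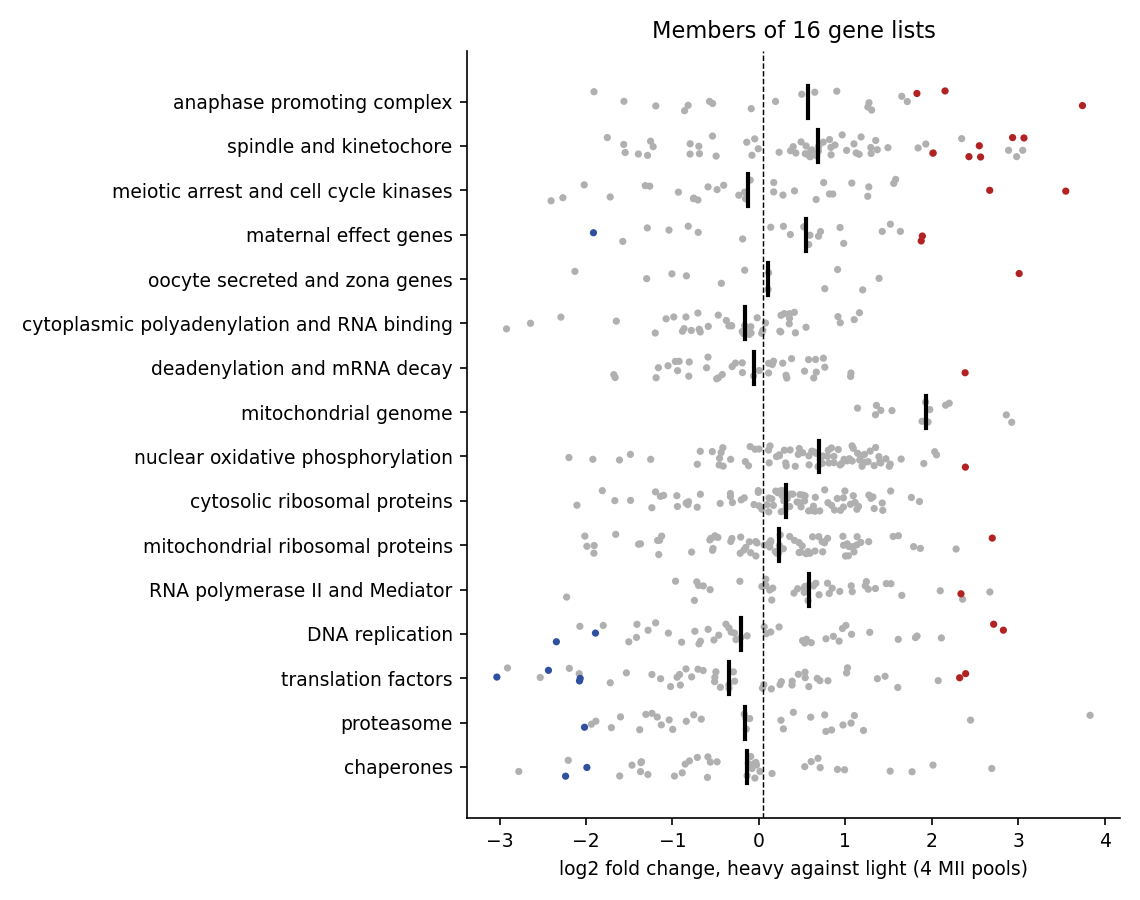
Log2 fold change of heavy against light (horizontal axis) for the tested members of 16 gene lists (rows), each member a point, red where higher, blue where lower and grey where not called. Black bars are list medians and the dashed line is the median of all genes tested (0.05). The list of the mitochondrial genome (median 1.93) lies wholly to the right, and members of the translation factor and DNA replication lists are called in both directions.

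Mitochondrial transcripts had the highest median of any list. The 13 protein-coding mRNAs of the mitochondrial genome, which mitochondrial ribosomes translate inside the organelle, had a median log2 fold change of 1.93 and a range from 1.14 to 2.93. In all 13 the heavy pools lay above the light pools (all genes: 3465 of 12918), but 0 passed the edgeR test with all libraries. At an unadjusted p-value below 0.05, 12 were higher, against 1544 of all 12918 genes. Those higher numbered 6 without F10 of gradient B, with the block 9 and with DESeq2 9. CYTB (cytochrome b) had 25.9, 37.8, 115 and 136 CPM (1.98 ± 0.38; adjusted p = 0.0511, 0.0248 and 0.00105), and ND5 (a subunit of complex I) had 8.68, 17, 58.1 and 137 CPM (2.93 ± 0.57; adjusted p = 0.0526, 0.0266 and 0.000114). Both were named after their values were seen. The share of all counts that fell on these 13 genes was 0.0258% to 0.0616% in the light libraries and 0.0657% to 0.201% in the heavy libraries, and it was highest at the top of the gradient, with 0.380% in F1 of gradient A and 0.514% in F1 of gradient B. Since these mRNAs are not read by cytosolic ribosomes, their position is given as a measurement only, and what carried them into F8 to F10 was not tested.

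Nuclear genes of oxidative phosphorylation had a median of 0.70 over 78 tested. In 54 of them the ratio was positive in both gradients and in 15 negative (all genes: 4426 and 4509 of 12918). NDUFB1 (a complex I subunit) was called, with 10.3, 9.62, 38.9 and 65.6 CPM (2.39 ± 0.45; adjusted p = 0.0479), and none was lower. The median was 0.35 without F10 of gradient B, a library that held 3.63% of its counts on these genes against 1.48% in F10 of gradient A. With the block 21 were higher and 4 lower. In gradient B without F10 the median ratio was 0.24, against 0.62 in gradient A.

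Calls among ribosomal protein genes were about as rare as among all genes. Of 81 cytosolic ribosomal protein genes 0 passed the edgeR test in either direction, although 8 and 7 had an unadjusted p-value below 0.05. Leaving out F10 of gradient B gave 1 higher and 5 lower, with the block 7 and 7, and with DESeq2 5 and 6. Their median was 0.32 with all libraries, and the median ratio in gradient B was 0.25 with F10 and -0.01 without it. Reads of ribosomal proteins and of EEF1A1 can be shared with near-identical copies, so values of single members are uncertain. Among 77 mitochondrial ribosomal protein genes MRPS16 was higher, with 61.8, 51.6, 397 and 340 CPM (2.70 ± 0.36; adjusted p = 0.0416), and the median was 0.23. In that list 1 was higher and 5 lower without F10 of gradient B, where the median was 0.03, and 8 and 7 with the block.

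Translation factors had calls on both sides, 2 higher and 4 lower of 50, and a median of -0.35. EIF4B (a cofactor of the helicase that unwinds 5-prime leaders) had 139, 125, 8.42 and 23.9 CPM (-3.03 ± 0.55; adjusted p = 0.0452). EIF2B3 (a subunit of the exchange factor for eIF2) had 64.1, 83.1, 11.8 and 15.4 CPM (-2.43 ± 0.41; adjusted p = 0.0449). EEF1A1 (elongation factor 1 alpha) had 315, 358, 72.1 and 87.6 CPM (-2.08 ± 0.35), and EIF4E2 (a cap-binding repressor of translation) had 87.9, 118, 26.7 and 22.5 CPM (-2.07 ± 0.38), and both were named after their values were seen. EIF3E (a subunit of eIF3) had the reverse pattern, with 23.6, 16, 82.9 and 125 CPM (2.39 ± 0.43; adjusted p = 0.0452), as had the helicase EIF4A2 with 8.48, 6.90, 38.0 and 39.1 CPM (2.32 ± 0.43; adjusted p = 0.0452). The median was 0.05 over 38 initiation factors and -0.81 over 12 elongation and release factors, of which 9 had a negative ratio in both gradients and 1 a positive one (all genes: 4509 and 4426 of 12918). The factors called without F10 of gradient B were 5 higher and 7 lower, and with the block 6 and 9.

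Genes that fold and degrade proteins were lower or uncalled. The cytosolic chaperonin CCT folds actin and tubulin, and 2 of its subunits were lower: TCP1 had 515, 497, 100 and 114 CPM (-2.24 ± 0.35; adjusted p = 0.0416), and CCT7 had 452, 642, 128 and 147 CPM (-1.99 ± 0.37; adjusted p = 0.0452). CCT3 had 604, 899, 98.9 and 227 CPM (adjusted p = 0.0630, and 0.0350 without F10 of gradient B), and CCT5 had 842, 791, 249 and 286 CPM (0.0545 and 0.0274). Both were picked after their values were seen. The median over 14 CCT and prefoldin genes was -0.68, with -1.54 in gradient A and -0.40 in gradient B, and that over 25 heat shock genes was -0.09. Over the 39 chaperones 0 were higher and 2 lower, with a median of -0.14. Leaving out F10 of gradient B gave 1 higher and 7 lower and moved the medians to -0.68 over all chaperones, -1.11 over CCT and prefoldin and -0.33 over heat shock genes, and the block gave 2 and 9.

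In the proteasome, the median was 0.52 over 14 genes of the core and -1.02 over 18 genes of the regulatory particle, which recognizes and unfolds substrates. Of the regulatory genes 12 had a negative ratio in both gradients and 3 a positive one, against 4509 and 4426 of all 12918 genes. PSMC1 (an ATPase of that particle) was the single called gene of 32, with 290, 360, 91.9 and 68.8 CPM (-2.02 ± 0.37; adjusted p = 0.0452). In the proteasome list 1 was higher and 7 lower without F10 of gradient B, and 5 and 10 with the block.

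DNA replication genes were called in both directions, 2 higher and 2 lower of 45 (5 and 5 without F10 of gradient B, 6 and 9 with the block). PCNA (the sliding clamp) had 24.6, 23.0, 151 and 188 CPM (2.83 ± 0.37; adjusted p = 0.0416), and POLE2 (a subunit of polymerase epsilon) had 7.09, 4.88, 34.8 and 44.0 CPM (2.72 ± 0.46; adjusted p = 0.0452). PRIM2 (a primase subunit) had 195, 241, 40.3 and 45.5 CPM (-2.34 ± 0.36; adjusted p = 0.0416), and RFC4 (a subunit of the clamp loader) had 179, 177, 43.0 and 53.0 CPM (-1.89 ± 0.35; adjusted p = 0.0470). The clamp PCNA and the loader subunit RFC4 thus differed in sign. In RNA polymerase II and Mediator, POLR2J was higher, with 50, 58.9, 270 and 281 CPM (2.34 ± 0.35; adjusted p = 0.0416), and the median over 42 genes was 0.58 (2 higher and 1 lower without F10 of gradient B, 6 and 1 with the block).

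Of 63 lysosomal genes 2 were higher and 1 lower (3 and 5 without F10 of gradient B, 5 and 6 with the block). Over all genes the shares were 3.43% and 4.85% without F10 of gradient B, and 6.92% and 7.32% with the block. PPT2 (a thioesterase) had 11.6, 21.5, 191 and 85.5 CPM (3.06 ± 0.54; adjusted p = 0.0452), ATP6V0B (a subunit of the proton pump) had 123, 151, 507 and 516 CPM (1.90 ± 0.35; adjusted p = 0.0452), and CTSC (cathepsin C) had 392, 528, 79.5 and 62.3 CPM (-2.70 ± 0.38; adjusted p = 0.0416). Of 236 genes with a ZNF symbol 2 were lower (5 higher and 8 lower without F10 of gradient B, 7 and 14 with the block), ZNF346 with 168, 171, 16.9 and 29.7 CPM and ZNF410 with 149, 103, 29.1 and 19.3 CPM. None of 64 histone lysine writers and erasers and none of 23 egg activation genes passed the edgeR test with all libraries (at an unadjusted p-value below 0.05, 11 and 2 were higher and 8 and 2 lower, and with DESeq2 8 and 1 were higher and 7 and 1 lower). Without F10 of gradient B 4 and 0 of these were higher and 3 and 1 lower, and with the block 7 and 1 were higher and 7 and 2 lower. The medians of these 3 lists were 0.04, 0.10 and -0.20.

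Scaling to library size alone moved the median of all genes from 0.05 to -0.07. Under it the medians of the APC/C subunits (-0.07), the secreted and zona genes (-0.01), the initiation factors (-0.04), the histone writers and erasers (-0.06) and the ZNF genes (-0.10) changed sign. The medians of the other lists named above kept theirs under both alternative scalings.

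The profiles over F3 to F10 show where within the gradient the pools differed. In gradient A, 85 of the 129 higher genes had their highest level in F10 and 40 in F9, and 65 of the 120 lower genes had it in F3 and 30 in F4. In gradient B the numbers were 78 and 46 for the higher genes and 70 and 34 for the lower ones. Of all 12918 genes, 2075 peaked in F10, 1776 in F9, 1822 in F3 and 1672 in F4 of gradient A. In gradient B these were 2455, 1795, 1890 and 1310. Few genes were detected in F10 of gradient B, where the median level of all genes was 0.1265 CPM. These peaks lie in the pools that defined the groups and are a description. F6 and F7 were not used to call a gene, but called genes differed by at least 3.23-fold between their pools. Such a gap leaves more room for an intermediate level than a narrower one, so the counts that follow are also a description. TMM factors of the pools and of the single fractions were computed separately. In F7 the level lay between the light and the heavy pool in 109 of the 129 higher genes in gradient A and in 120 in gradient B, and in 96 and 80 of the 120 lower genes. The same held for 3788 and 4410 of all 12918 genes. In F6 it held for 115 and 118 genes in gradient A and, in the library of gradient B with few detected genes, for 53 and 84. Over all genes it held for 6035 in gradient A and 2648 in gradient B.

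Levels of PTTG1 went along gradient A from 156 CPM in F3 to 502 in F5, 1075 in F7, 4291 in F9 and 4703 in F10, and in gradient B from 239 in F3 to 297 in F5, 1768 in F7, 2882 in F9 and 4399 in F10. H1FOO had its lowest level in F4 in gradient A (646 CPM) and in F6 in gradient B (803 CPM), and its highest in F10 in both (5597 and 4339 CPM). AURKC reached 2093 CPM in F10 of gradient A, but in gradient B it reached 927 CPM in F9 and had 142 CPM in F10. NLRP9 had 1338 and 1018 CPM in F3, peaked in F5 with 4227 and 2481 CPM, and had 508 and 137 CPM in F10. TCP1 and EIF4B peaked in F4 in gradient A (540 and 170 CPM), and EIF4B had 145 CPM in both F3 and F4 of gradient B.

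For genes that were not called, the profiles had other forms. GDF9 lay between 1551 and 2053 CPM from F3 to F7 of gradient A and between 538 and 735 CPM from F8 to F10, while in gradient B it had 1687 CPM in F9. CCNB1 was lowest in F8 of gradient A (230 CPM) and in F6 of gradient B (117 CPM), with higher values on both sides, so that summing F3 to F5 and F8 to F10 gave similar pools. BMP15 had its highest value in F7 of gradient A (2585 CPM), outside both pools.

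**Figure D4:**
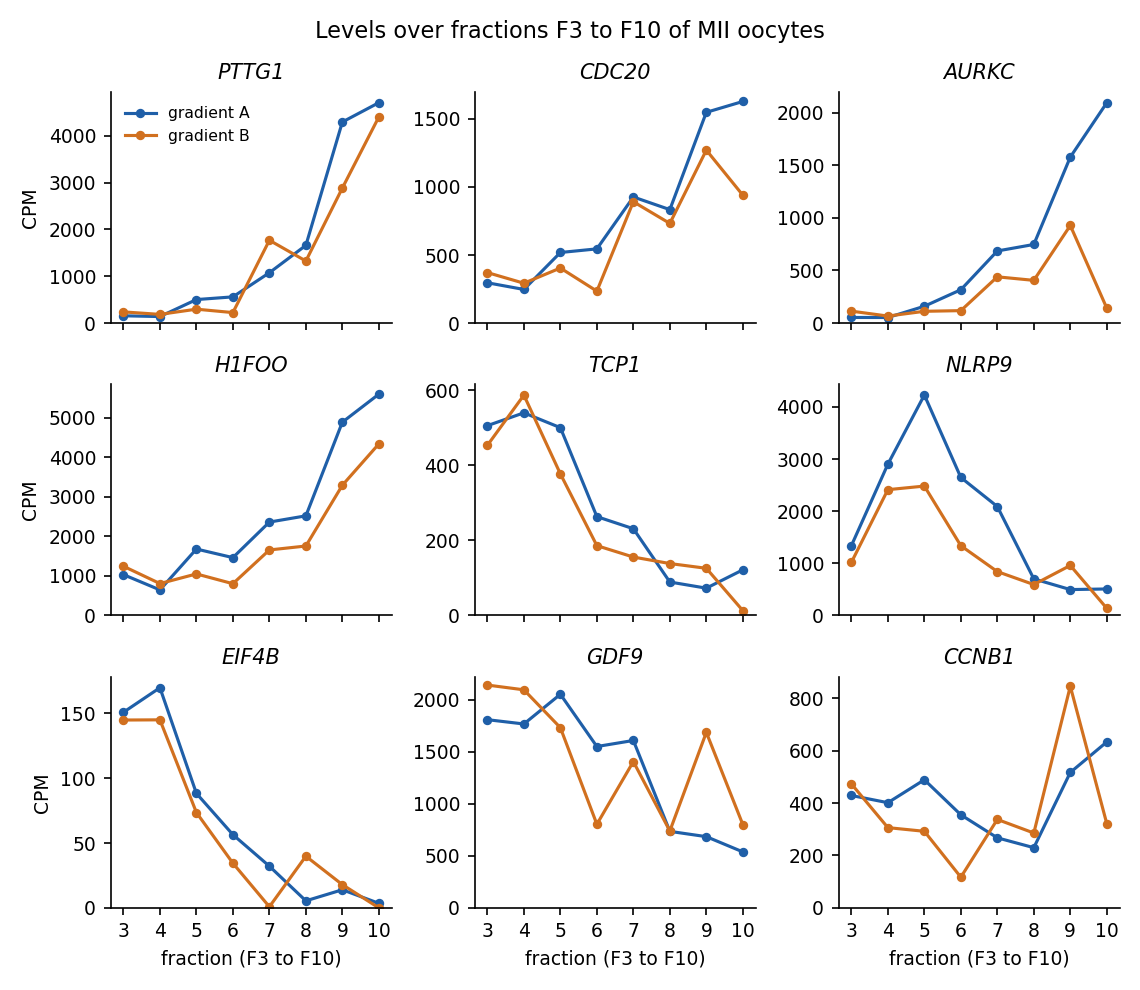
Level in CPM (vertical axis, from 0) over fractions F3 to F10 (horizontal axis) for 9 genes in MII gradients A (blue) and B (orange), 1 library per point. PTTG1, CDC20 and H1FOO climb to F9 or F10 in both gradients, TCP1 and EIF4B fall from F3 and F4, NLRP9 peaks in F5, and AURKC parts between the gradients in F10.

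Markers were used to check the label and to look for other cells. All 12 oocyte markers were tested, and their summed level was 32050 to 58300 CPM in the 6 light and 47530 to 91710 CPM in the 6 heavy libraries. Of 20 cumulus and granulosa markers 13 were tested, and their sum was 1232 to 1819 CPM in light and 554 to 2187 CPM in heavy libraries. FSHR, AMHR2 and AREG, which define granulosa or stimulated cumulus cells, were at 0 in all 12 libraries. STAR was the most abundant of them, with 1082, 1347, 489 and 791 CPM (adjusted p = 0.185, 0.0473 without F10 of gradient B and 0.0632 with the block). INHA, an inhibin subunit, had 1.30, 3.68, 27.3 and 247 CPM (adjusted p = 0.0511, 0.0214 without F10 of gradient B and 1.24e-05 with the block), and TNFAIP6, a matrix gene of expanding cumulus, had 0, 0.935, 8.19 and 49.9 CPM (0.0828, 0.0625 and 0.000212). CYP11A1, a steroid-making enzyme, had 1.13, 0.392, 7.67 and 13.4 CPM (0.0549, 0.0289 and 0.00532). Over the 13 tested markers the median log2 fold change was 0.30 and 0 were called with all libraries. In both gradients the ratio was positive for 5 and negative for 3 of them. KITLG was among the negative ones, with 12.4, 8.74, 2.07 and 2.47 CPM (0.0828, 0.0611 and 0.0417). STAR, INHA, TNFAIP6, CYP11A1 and KITLG were chosen after their values were seen. Their part in the other results was not tested. Blood and immune markers summed to 501 to 788 CPM in light and 403 to 749 CPM in heavy libraries. Of these 10 markers 6 were tested, and VWF was the most abundant, with a mean of 318 CPM over the 12 libraries. HBB, PTPRC and CD14 were at 0.

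The same contrast was then set against that of the stages before and after, GV oocytes and 2-cell embryos, in 1 fit of 12 pools and 13911 genes. CPM in this fit were scaled over 12 pools, so those of MII differ slightly from the values above. Gene detection and the likeness of gradients were checked for MII libraries only. No library of GV oocytes or 2-cell embryos was left out in any setting. Larger and smaller refer below to the signed log2 fold change of heavy against light. A smaller difference can thus be a wider gap in favour of the light pools, as in NR2C2 (-3.14 in MII oocytes and -0.59 in 2-cell embryos). The heavy to light difference was larger in MII than in GV oocytes for 440 genes (3.16%) and smaller for 576 (4.14%). With library size alone, 238 were larger and 917 smaller, so the share of larger differences was 20.6% in place of 43.3%, and the median difference of all genes moved from 0.02 to -0.30. Against 2-cell embryos, 26 genes had a larger (0.187%) and 2 a smaller difference (0.0144%), and 900 and 700 genes had an unadjusted p-value below 0.05. Both tests use the MII pools, so they are not independent.

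Of the 20 APC/C genes 4 had a larger and 2 a smaller difference in MII than in GV oocytes. The larger ones were CDC20, UBE2C, PTTG1 and the subunit ANAPC2 (1.33), and the smaller ones the subunits ANAPC5 (-2.62) and CDC16 (-2.29). CDC16 was not called without F10 of gradient B (adjusted p = 0.0516), nor ANAPC2 with the block (0.0543). CDC20 had 2410 and 1863 CPM in the light and 1222 and 1405 CPM in the heavy pools of GV oocytes, and 384 and 411 CPM in the light and 1511 and 1232 CPM in the heavy pools of MII oocytes. Its log2 fold change was thus -0.70 in GV and 1.79 in MII oocytes, a difference of 2.49 ± 0.43 (adjusted p = 0.00649). The change lay mostly in the light pools, which held less CDC20 in MII oocytes, while the heavy pools were alike. UBE2C (difference 2.43), PTTG1 (2.18), AURKC (3.35), CNOT7 (2.89), OOSP2 (2.91), H1FOO (1.61) and TRIM28 (2.56) also had a larger difference in MII oocytes. Without F10 of gradient B these differences were between 1.49 and 3.41 and all 8 remained called. CCNB1 had -1.05 in GV and 0.38 in MII oocytes (difference 1.43 ± 0.36; adjusted p = 0.0329), and WEE2 had -2.39 and -0.52 (1.87 ± 0.49; adjusted p = 0.0384, and 0.0550 without F10 of gradient B). All these genes were chosen after their values were seen.

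By the rule on size, the 5 largest differences were those of LRRC57, RNPEP, NLRC5, NOC2L and TMCO3, from 3.69 to 3.82. LRRC57 had 274 and 336 CPM in light and 80.2 and 74.9 CPM in heavy pools of GV oocytes, and 24.5, 30.3, 91.4 and 105 CPM in MII oocytes, so both stages separated fully and in opposite directions. NOC2L was not called without F10 of gradient B (difference 1.48; adjusted p = 0.183) or with the block (adjusted p = 0.0673).

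Genes whose heavy to light difference was smaller in MII than in GV oocytes included protein folding, ribosomal and oocyte-secreted genes. GDF9 had 298 and 284 CPM in the light and 922 and 1591 CPM in the heavy pools of GV oocytes, against 2081, 2302, 743 and 1399 CPM in MII oocytes, a difference of -3.14 ± 0.47 (adjusted p = 0.00403). ZP2 (-2.21), NLRP9 (-2.58) and CDK1 (-2.27) had the same sign. Of 39 chaperones 12 had a smaller difference and 0 a larger one, and their median log2 fold change was 0.72 in GV and -0.18 in MII oocytes. CCT4, CCT8 and TCP1 were among the 12, with differences of -3.14, -2.89 and -2.54. These 7 genes were chosen after their values were seen.

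Of 81 cytosolic ribosomal protein genes 10 had a smaller and 0 a larger difference (medians 1.12 in GV and 0.29 in MII oocytes). Of 78 nuclear genes of oxidative phosphorylation 10 and 0 did (medians 1.41 and 0.67), and of 50 translation factors 8 and 1. The smaller differences without F10 of gradient B numbered 15 of the chaperones, 16 of the ribosomal proteins and 24 of the oxidative phosphorylation genes, while over all genes they rose from 576 to 791 (582 were larger). Leaving out gradient A of MII oocytes left 6 chaperones with a smaller difference, of 413 genes in all. The median difference stayed negative in these 4 lists under both other scalings.

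The 2 genes with the most negative differences were EIF1AX, an initiation factor, and RPL5, a protein of the large subunit. EIF1AX had 2.49 and 1.66 CPM in the light and 36.6 and 58.4 CPM in the heavy pools of GV oocytes, and 86.2, 104, 43.6 and 110 CPM in MII oocytes (-4.83 ± 0.67; adjusted p = 0.00403). RPL5 had 7.33 and 4.77 CPM against 44.9 and 75.1 CPM in GV oocytes, and 152, 159, 44.4 and 64.3 CPM in MII oocytes (-4.83 ± 0.51; adjusted p = 0.00282). In both genes the light pools of MII oocytes held more than any pool of GV oocytes.

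Against 2-cell embryos, PTTG1 had a difference of 3.23 ± 0.39 (adjusted p = 0.0151): its log2 fold change was 3.70 in MII oocytes and 0.47 in 2-cell embryos, where the pools had 1058, 756, 1258 and 1252 CPM. PCNA had 2.80 in MII oocytes and -0.25 in 2-cell embryos (difference 3.04 ± 0.40; adjusted p = 0.0151). SNRPD3 had 3.84 and 1.10 (difference 2.74; adjusted p = 0.0490, and 0.0544 without F10 of gradient B), and was chosen after its values were seen. NR2C2 had the opposite sign, with -3.14 and -0.59 (difference -2.55 ± 0.45; adjusted p = 0.0468). SERPINA14 (a serpin) had the largest difference, 5.36 ± 0.85, with 9.88, 22.7, 81.7 and 347 CPM in MII oocytes and low levels of 1.45 to 5.17 CPM in 2-cell embryos. Its heavy pools of MII oocytes differed from each other, and the difference was 4.40 without F10 of gradient B.

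With the block, 6 genes had a larger and 1 a smaller difference against 2-cell embryos. Of the 6 genes named by the rule, SERPINA14, PTTG1 and PCNA were then called, while NUP37, MRPL13 and NR2C2 had adjusted p-values of 0.0567, 0.0646 and 0.0567. In the edgeR test without the block, MRPL13 of the mitochondrial ribosome was the 1 gene of the chaperone, ribosomal and oxidative phosphorylation lists with a larger difference. Under DESeq2 these were 1 chaperone, 1 cytosolic and 4 mitochondrial ribosomal genes and 2 genes of oxidative phosphorylation. In edgeR 1 gene of oxidative phosphorylation and 0 of the other 3 lists were called without F10 of gradient B, and 0 of the 4 lists with the block. The medians of the chaperone, cytosolic ribosomal and oxidative phosphorylation lists in 2-cell embryos were -0.37, 0.50 and 0.54, nearer to those of MII than of GV oocytes, and that nearness was not tested.

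**Figure D5:**
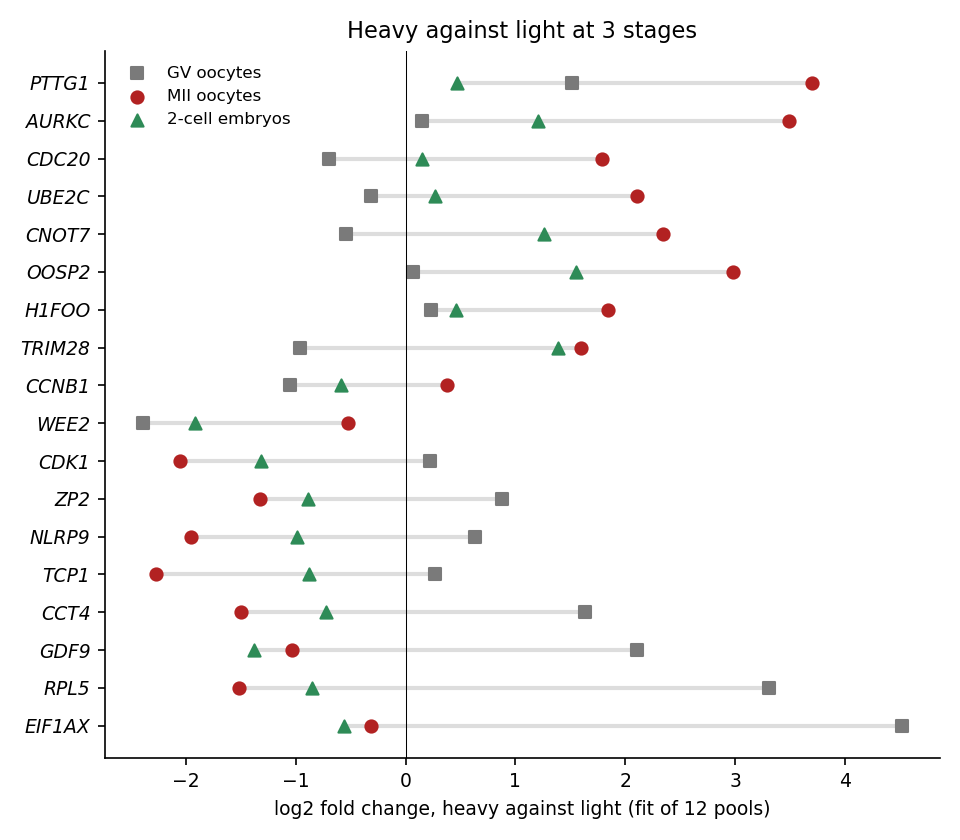
Log2 fold change of heavy against light (horizontal axis) for 18 genes (rows) in GV oocytes (grey squares), MII oocytes (red circles) and 2-cell embryos (green triangles), from 1 fit of 12 pools. PTTG1 reached 3.70 in MII oocytes against 1.52 and 0.47, and GDF9 and RPL5 were positive in GV oocytes only.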

How the data were processed

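Each fraction was sequenced by the authors after Smart-seq amplification of poly(A) RNA. They estimated reads per gene with Salmon and deposited expected counts, not normalized, for 16706 symbols. 11.7% of the values are not whole. The Salmon version is not given in the sources used here, and the sources differ on the genome build, so no coordinates or sequences are given. Amplification to similar totals removes the amount of RNA in a fraction, so values are shares of amplified poly(A) RNA. Columns were matched to samples by name, with 0 left unmapped.

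Expected counts were summed over F3 to F5 and F8 to F10 of a gradient, rounded, filtered with filterByExpr and scaled with TMM. The 4 MII pools were tested with edgeR 4.0.16 (glmQLFit with robust estimation, glmQLFTest) in R 4.3.3, two-sided, with Benjamini-Hochberg adjustment and a threshold of 0.05. The 2 stage differences were interaction terms in a fit of 12 pools. The scripts were tested on simulated data. Alternatives used limma 3.58.1, DESeq2 1.42.0, other scalings, filters and pools, and thinning. Tables were made with Python 3.11.15 and pandas 2.3.3.

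The gradient letters pair the pools by design, since both pools of a letter come from 1 lysate and gradient. The A minus B differences of heavy and of light pools had r = 0.0825 across genes.

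Genes named are the 10 largest and 10 smallest log2 fold changes among called genes with a mean of at least 20 CPM, at least 3 counts in each pool and no overlap, leaving out symbols that start with LOC or ENSBTAG. Added to these are up to 2 called members per list and direction, and a fixed panel (CPEB1 and H1-8 carry no row under those symbols). The 5 largest and 5 smallest called stage differences were added at the same limits on level, counts and symbols. No limit on overlap was set for these differences. Others are marked in the text. Members and lists were chosen with earlier results of these data known. Protein length, whole-cell libraries and the other stages were not analysed here.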

Additional observations from a re-analysis of the deposited data

Results flagged for a closer look

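Among the 10 fractions of an MII gradient, single libraries stood apart by Dixon's ratio, which flags about 1 group in 20 by chance. The fractions of a gradient are not replicates, so these flags describe libraries. F10 of gradient B held 6188 genes with at least 3 counts, and the r of F10 between the gradients was 0.652. The 20 most abundant genes took 29.3% of the counts in F2 of gradient A and 38.4% in F2 of gradient B, the highest of each gradient. F2 is in no pool.

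The contrast differed between stages by the edgeR test of the difference for 440 genes (larger in MII than in GV oocytes) and 576 (smaller), and for 26 and 2 genes against 2-cell embryos. The log2 differences between MII and GV oocytes were 3.82 for LRRC57, 3.76 for RNPEP, 3.74 for NLRC5 (3.735 before rounding), 3.72 for NOC2L and 3.69 for TMCO3. They were -4.83 for EIF1AX (-4.835 before rounding), -4.83 for RPL5, -3.89 for XRCC6, -3.58 for FAM32A and -3.56 for PMPCB. NOC2L was not called without F10 of gradient B. The heavy pools of MII oocytes had 112 CPM of NLRC5 in gradient A and 21.8 CPM in gradient B. The differences between MII oocytes and 2-cell embryos were 5.36 for SERPINA14, 3.64 for NUP37, 3.23 for PTTG1, 3.04 for PCNA, 2.94 for MRPL13 and -2.55 for NR2C2.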

How the results depend on the processing

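The number of genes called in MII oocytes, 129 higher and 120 lower, changed with most settings, and the causes were not tested. In the edgeR test 0 and 0 genes passed with library size only (unadjusted p below 0.05 for 1180 and 1729; lowest adjusted p 0.0616), with F9 and F10 against F3 and F4 (1447 and 1354; 0.0820), with F8 left out (1368 and 1395; 0.0899) and with F3 left out (1274 and 1368; 0.0584). More passed in other settings: 412 and 484 with no filter, 812 and 971 by the likelihood ratio test, 968 and 992 with DESeq2, 924 and 1140 in the fit of 12 pools, 358 and 538 with F10 left out, and 248 and 230 with F5 left out. The replicate block gave 894 and 946. Without F10 of gradient B, an alternative chosen after seeing the data, 444 and 627 passed, and 997 and 1321 with the replicate block as well. Leaving out gradient A or B of MII oocytes gave 381 to 633 higher and 606 to 609 lower genes, in a fit in which the lone gradient is assumed to vary like the other stages. RLE factors (118 and 110) and thinned pools (126 and 118) differed little. Of all calls 51.8% were higher, against 38.5% without gradient B, 39.6% with equal weights of fractions, 40.0% with F10 left out and 41.5% without F10 of gradient B.

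Between MII and GV oocytes, 238 and 917 genes differed with library size only, 908 and 1029 by the likelihood ratio test and 1122 and 1007 with DESeq2. With RLE factors 51.0% of calls were higher. Between MII oocytes and 2-cell embryos the numbers were 7 and 1 with library size only, 76 and 12 with no filter, 272 and 118 by the likelihood ratio test, 338 and 127 with DESeq2, and 6 and 1 with the replicate block. Without gradient A or B of MII oocytes they were 12 to 96 and 3 to 38.

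Of 84 genes named from the MII comparison, 54 no longer passed in each of the 4 settings with 0 calls. The direction reversed for BMP15 with library size only (-0.00817) and with F3 left out (-0.0247), and for ZP4 without gradient B (0.367, against -0.56 without gradient A), none of them called. F10 of gradient B, with 6188 genes detected, limits what low genes can show in heavy fractions.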
